A study of Mus musculus with 4 samples.

Results

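Nuclei that carried Fign and Piezo2 transcripts together with a GABAergic transcript were examined across genes in the mouse posterior substantia innominata, a ventral forebrain region of mostly GABAergic projection neurons with scattered cholinergic cells. They were chosen by their raw transcript counts (unique molecular identifiers, UMIs): at least 3 Fign, at least 2 Piezo2, at least 1 Gad1 or Gad2 in sum, at most 2 Tshz1, at most 2 Moxd1, none of Slc17a6 or Slc17a7, and at least 2 over Syt1, Snap25 and Rbfox3. Each nucleus also had to show 500 to 8000 genes and under 5% mitochondrial UMIs. The rule found 205 of 40532 barcodes, or 0.506%: 74 in male library 1, 63 in male library 2, 41 in female library 1 and 27 in female library 2. These 205 nuclei are called members below. They were compared, library by library, with the 16410 other nuclei within the same limits that held at least 2 Gad1 and Gad2 UMIs, called other GABAergic nuclei. The 11 genes that the rule counts, and Zbtb7c and Zfp804b, which were given as markers with the rule, are described without a test.

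The study set out to measure sex differences in neurons of this region by single-nucleus RNA sequencing on a droplet platform. All mice were wild type and 8 weeks old, untreated as far as the labels say, and the groups were 2 libraries from males and 2 from females. Whether a sex's libraries came from separate animals or from pools is not stated, so every p-value below speaks for these 4 libraries only. The edgeR fits, which gave most of them, share their estimate of spread across genes. The standard error and p-value of a gene therefore need not show how far its own 4 libraries differ.

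Fign encodes fidgetin, a AAA ATPase of the family that severs microtubules. Piezo2 encodes a channel opened by mechanical force, best known from touch and proprioceptive sensory neurons. Gad1 and Gad2 encode the enzymes that make GABA, and Slc17a6 and Slc17a7 encode the vesicular glutamate transporters that mark excitatory neurons. Forebrain GABAergic neurons of different embryonic origin keep different sets of transcription factors, such as Prox1, Sox6, Isl1 and Bcl11b, and those sets are commonly used to tell them apart.

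Members held 1380033, 999744, 399535 and 279072 UMIs in all in male 1, male 2, female 1 and female 2, which is the order of every set of 4 values below. Their median UMIs per nucleus were 15102.5, 12133, 6248 and 10275, against 13364, 12984.5, 6075 and 6491 in other GABAergic nuclei, so in female 2 members were deeper than the comparison nuclei. No barcode of a member occurred in another library. The male libraries were deeper than the female ones and were written by Cell Ranger 9.0.1, female 1 by 7.0.0 and female 2 by 7.2.0, with 33696, 33696, 55357 and 32285 genes listed. Sex, software version, gene list and depth therefore cannot be told apart. The tests used the 31899 genes common to all 4 lists.

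Fign and Piezo2, the genes that chose the nuclei, were carried by a median of 9, 8, 6 and 7 Fign UMIs per member, from 3 to 46, and by 3, 4, 3 and 3 Piezo2 UMIs, from 2 to 19. Over summed nuclei the Fign level was 540, 606, 694 and 820 counts per 1000000 UMIs (CPM) in members and 146, 136, 155 and 119 in other GABAergic nuclei. Fign was not a neuronal signal alone: oligodendrocyte nuclei of the same libraries showed 313, 313, 356 and 285 CPM. Piezo2 stood at 245, 303, 335 and 500 CPM in members, at 3.99, 5.35, 6.55 and 4.85 in other GABAergic nuclei, and at 9.56, 20, 20.5 and 4.68 in oligodendrocyte nuclei. Piezo2 was thus the rarer of the pair, and it did most of the selecting. In male 1, 1864 nuclei within the limits had 3 Fign UMIs and 105 of those had 2 Piezo2 UMIs, and in female 2 the step went from 859 to 33.

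The zinc finger genes Zbtb7c and Zfp804b, which the rule did not count, also stood higher in members. Zbtb7c reached 144, 165, 156 and 324 CPM against 59.9, 58.3, 42.2 and 46.4 in other GABAergic nuclei, and 149 of the 205 members held a UMI of it. Zfp804b reached 1430, 1460, 2040 and 1830 CPM against 1000, 955, 853 and 771, and 191 members held a UMI. In each library the members lay above the comparison nuclei for both genes, and 7 members held neither. Since both were given with the rule, these levels are a description. After every nucleus was thinned to 4000 UMIs, the share with a Zbtb7c UMI was 45.9%, 37.1%, 43.2% and 47.8% in members, 17.9%, 17.1%, 12.1% and 13.1% in other GABAergic nuclei, and 1.49%, 3.7%, 10% and 5% in oligodendrocyte nuclei, which should lack it. Nuclei with fewer UMIs were left out. The oligodendrocyte nuclei had medians of 2057, 1990, 1624.5 and 1361 UMIs, so their shares rest on a deeper minority. Fign lies on chromosome 2 at 63971507 to 64098038 and Zfp804b on chromosome 5 at 6769010 to 7344756, both on the minus strand of GRCm38.

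**Figure D1:**
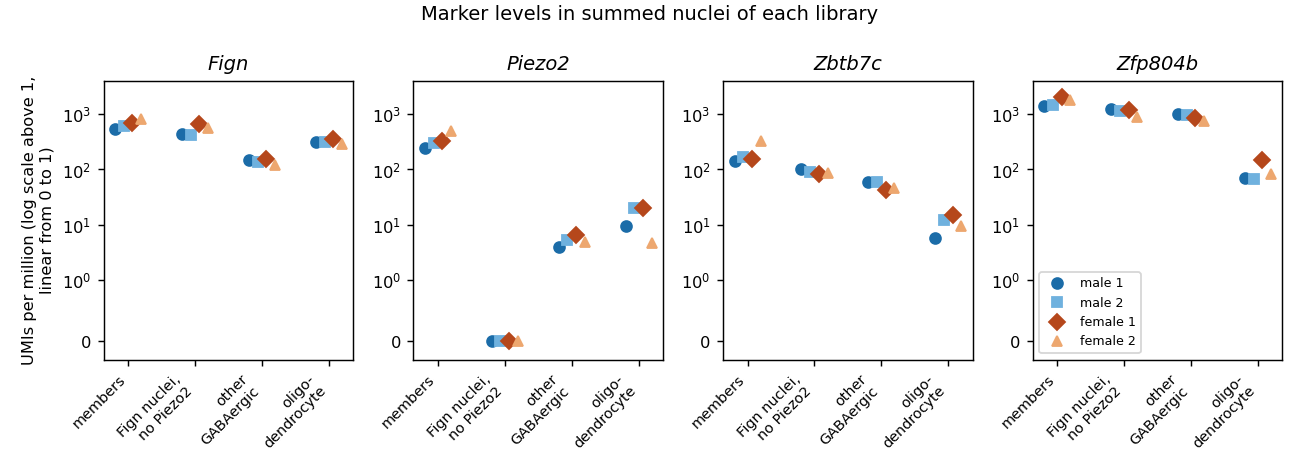
Levels of the marker genes, in CPM on a scale that is linear from 0 to 1 and logarithmic above, in summed nuclei of members, other GABAergic nuclei, nuclei with Fign but no Piezo2, and oligodendrocyte nuclei, with 1 point per library. Piezo2 is at 245 to 500 in members and at 3.99 to 6.55 in other GABAergic nuclei, whereas Fign in oligodendrocyte nuclei (285 to 356) lies above its level in other GABAergic nuclei.

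The thresholds crossed a continuous range. Members with exactly 2 Piezo2 UMIs numbered 22, 13, 18 and 10, and their Zbtb7c levels were 148, 99, 143 and 192 CPM. Just outside, 36, 36, 28 and 28 nuclei met every other condition with 1 Piezo2 UMI, at 94.4, 100, 215 and 223 CPM of Zbtb7c. With no Piezo2 UMI there were 1041, 981, 605 and 495 such nuclei, at 100, 92.1, 81.7 and 82.9 CPM. In male 2, female 1 and female 2 the nuclei just outside the Piezo2 threshold had as much Zbtb7c as those just inside it, and in male 1 they had less.

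As a check of the label, GABAergic genes were compared with those of other transmitters. Slc32a1, the vesicular GABA transporter, was at 41.9, 39.6, 19.4 and 43.3 TMM-scaled CPM in members and at 40.5, 43.0, 15.6 and 53.3 in other GABAergic nuclei (log2 difference -0.04 ± 0.17 SE, adjusted p = 0.968, edgeR). The members overlapped the comparison nuclei for Slc32a1. In unscaled CPM it was at 40, 39.2, 20.5 and 46.7 in members and at 37, 37.4, 31.5 and 76.5 in oligodendrocyte nuclei. In glutamatergic nuclei, chosen by Slc17a6 and Slc17a7, it was at 6.15, 9.18, 6.22 and 16.1, below members in each library. Because its level in oligodendrocyte nuclei was near or above that in members, it cannot by itself show that members are GABAergic. Chat, the acetylcholine-synthesising enzyme, had 1 UMI over all members against 2235 in other GABAergic nuclei, a level lower by a ratio of 32.9 with a counting interval of 5.9 to 1300. Sst, which encodes somatostatin, was at 25.1, 15.2, 26.6 and 40.0 against 15.6, 14.5, 8.01 and 34.2 and was not called (0.57 ± 0.22, adjusted p = 0.138). Oligodendrocyte nuclei held 33.1, 23.4, 13 and 81.9 unscaled CPM of Sst, against 24, 15.1, 28.2 and 43.1 in members. Gad1 and Gad2 were lower in members by 0.51 and 0.33 on the log2 scale. The rule asked for 1 UMI in members and 2 in the comparison nuclei, which by itself lowers the members' level. How much of the gap these unlike thresholds account for was not tested.

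Members did not form a cluster of their own. Within each library, GABAergic nuclei were placed by their variable genes without the rule and marker genes, and the share of members among the 15 nearest neighbours of a member had a median of 6.67%, 13.3%, 6.67% and 13.3%, against 1.49%, 1.31%, 1.14% and 0.831% over all GABAergic nuclei. Members were thus commoner around members than around GABAergic nuclei at large, while 23, 17, 14 and 8 of them had no other member among those neighbours. The mean of the 4 library medians was 10.0%, and it was 5.0% after thinning to 4000 UMIs, where the medians were 0%, 6.67%, 6.67% and 6.67%. In male 1, the library with the most members, 39 of 74 then had no other member among their neighbours. With members so rare, a median of 0% over 15 neighbours cannot decide whether members were commoner around members there. The mean shares after thinning were 4.9%, 5.8%, 11.2% and 13.0%. Members made up 1.51%, 1.30%, 1.24% and 0.851% of the GABAergic nuclei kept, so by the mean members were commoner around members in each library.

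The clusters that held most members were of 2 kinds, and because clusters are made from the same expression values their genes are a description only. A cluster with Prox1 among its 10 leading genes by fold existed in each library and is called Prox1-led, although in female 1 Nr4a3 and Col14a1 ranked above it. These clusters held 18, 20, 9 and 22 members, that is 69 of 205, or 33.7% of members against 9.98% of GABAergic nuclei. A cluster with Tmem163, which encodes a zinc transporter, among its 20 leading genes is called Tmem163-led, although Gm49678, Tafa1 and Kitl were its first genes in male 1, male 2 and female 1, where Tmem163 ranked 3, 5 and 4. It held 22, 21 and 19 members there, or 30.2% of all members against 6.51% of nuclei. Female 2 had no such cluster. Clusters with glial genes among their leading genes held 21, 19, 11 and 3 members, 54 in all, or 26.3% of members against 15.6% of nuclei. The remaining 20 members, or 9.76%, were spread over other clusters, which held 67.9% of nuclei.

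Members in the 2 kinds of cluster shared Fign and Piezo2 and differed in identity genes. In Prox1-led clusters members had 113, 93.5, 145 and 28.5 CPM of Prox1, a homeobox factor of interneuron lineages, and in Tmem163-led clusters 47.2, 30.4 and 89.8. Kcnmb2, an auxiliary subunit of the large-conductance calcium-activated potassium channel, went the other way in the first 3 libraries, with 113, 32.7 and 145 CPM in Prox1-led and 322, 359 and 643 in Tmem163-led clusters. Sox5, a transcription factor of neuronal and glial differentiation, was at 49.1, 23.4 and 20.7 CPM in the Prox1-led members and at 328, 334 and 875 in the Tmem163-led members of the same libraries. In these libraries 3 of 18, 4 of 20 and 1 of 9 Prox1-led members held a Sox5 UMI, and 10 of 22, 12 of 21 and 15 of 19 Tmem163-led members did. Isl1, a LIM-homeobox factor of striatal and septal development, stood at 14.7, 23.4 and 0 CPM in the first kind and at 97.4, 76 and 37.4 in the second.

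In female 2 the Prox1-led cluster held members with both sets of genes: 656 CPM of Sox5, a UMI of it in 11 of 22 members, 285 CPM of Kcnmb2 and 52.3 CPM of Isl1. Members also stood apart from the nuclei they were clustered with. In the Prox1-led clusters their Sox6 level, a marker of medial-ganglionic-eminence interneurons, was 103, 112, 228 and 61.8 CPM against 671, 751, 815 and 374 in the other nuclei of the same clusters. Grm8, a presynaptic glutamate receptor gene, was at 1670, 1670, 1060 and 1580 in these members against 623, 667, 628 and 539. In each library members were below their cluster for Sox6 and above it for Grm8. Tmem163 itself was lower in the members of the clusters named after it, at 20.7, 39.5 and 52.4 CPM against 64.6, 64.2 and 151.

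**Figure D2:**
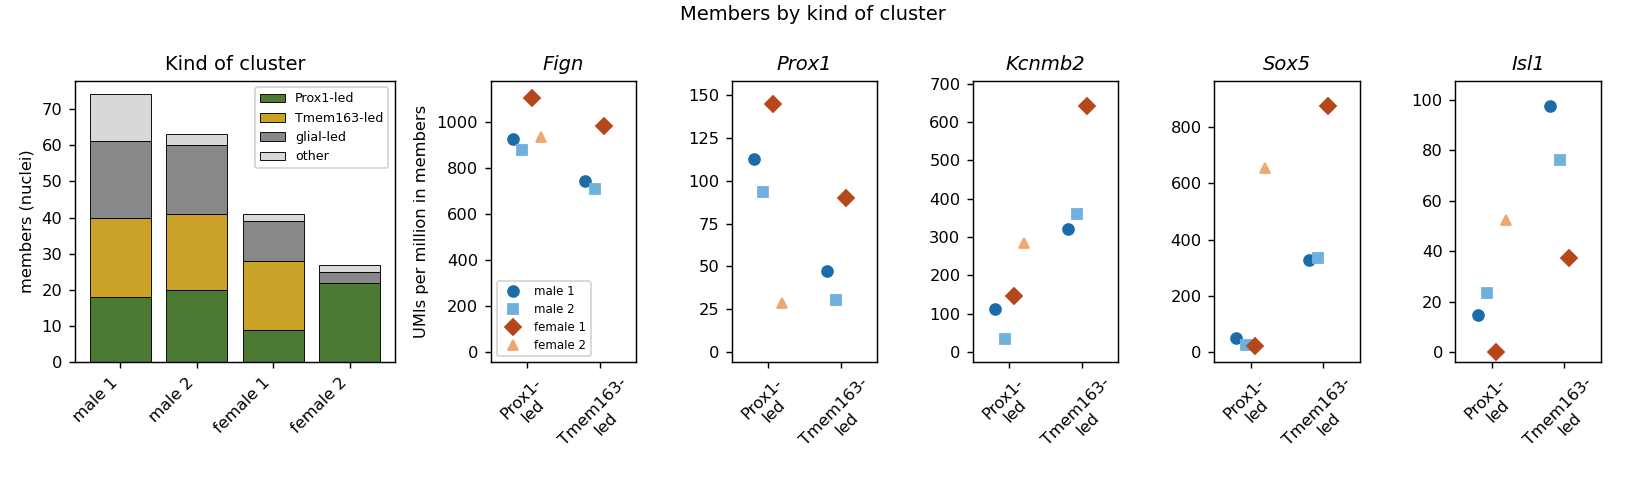
Number of members in each kind of cluster by library, and levels of identity genes, in CPM, in the members of Prox1-led and Tmem163-led clusters, with 1 point per library. Sox5 and Isl1 are higher in the Tmem163-led members of male 1, male 2 and female 1, and the Prox1-led members of female 2 reach 656 for Sox5.

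Against other GABAergic nuclei, 247 of 15687 genes tested were higher in members, or 1.57%, and 418 were lower, or 2.66% (edgeR quasi-likelihood test on UMIs summed per library, with library as a block, Benjamini-Hochberg adjusted p under 0.05). Of the calls 37.1% were thus higher, and 47.2% when the sums were scaled by DESeq2's size factors instead of TMM. The median log2 difference of all genes was -0.035. Groups whose 4 member values all lay on 1 side of all 4 comparison values were found for 988 genes, or 6.3% of those tested. Without male 1 the calls numbered 146 and 246, without male 2 156 and 258, and against comparison nuclei matched on UMIs 154 and 200. The same 4 libraries served to choose the members and to test them, so the calls describe these nuclei as selected.

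Members had more Prox1, Dlx1 and Sox5 and less Bcl11b and Ebf1 than other GABAergic nuclei. Of 72 tested genes in a list of forebrain identity factors, 8 were higher and 11 lower, with a median of -0.14. Prox1 was at 58.6, 46.7, 84.7 and 36.7 TMM-scaled CPM in members, against 22, 20, 26.1 and 16.4 in other GABAergic nuclei (1.40 ± 0.16 on the log2 scale, adjusted p = 6.16e-15), and the groups did not overlap. Dlx1, a homeobox factor of GABAergic precursors, was at 27.4, 25.4, 9.68 and 20 against 10.6, 10.9, 4.16 and 7.10 (1.32 ± 0.25, adjusted p = 1.7e-05), higher in each library. Sox5 was at 172, 217, 518 and 490 against 157, 152, 124 and 76.1 (1.27 ± 0.10, adjusted p = 3.96e-31). Most of the Sox5 difference came from the female libraries, and DESeq2 did not call it (adjusted p = 0.312). Isl1 was at 44.2, 53.8, 29.0 and 43.3 against 27.0, 28.3, 17.2 and 25.6 (0.80 ± 0.17, adjusted p = 0.00017), a call lost without male 2 (adjusted p = 0.0604). Onecut2 rose by 1.21 ± 0.28 (adjusted p = 0.001), a call lost without male 1 (adjusted p = 0.0638).

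Several factors known from striatal projection neurons were lower. Bcl11b, which specifies these neurons, was at 59.4, 62.9, 60.5 and 23.3 CPM in members against 133, 137, 164 and 133 (-1.32 ± 0.13, adjusted p = 1.06e-20). Ebf1, needed for striatonigral differentiation, was at 82.2, 112, 143 and 80.0 against 202, 191, 332 and 249 (-1.17 ± 0.12, adjusted p = 1.02e-19). Neither overlapped. Lmo3, a LIM-only cofactor, fell by 0.82 ± 0.12 (adjusted p = 4.68e-09). Sox6 was at 139, 128, 339 and 60.0 against 277, 256, 297 and 182 (-0.73 ± 0.11, adjusted p = 1.68e-08), but the members of female 1 were above their comparison nuclei and DESeq2 did not call the gene (adjusted p = 0.0719). The list of striatal projection neuron signalling genes had 10 of 20 tested members lower and none higher, with a median of -0.58 against -0.035 over all genes. Drd2, the D2 dopamine receptor, fell by 1.45 ± 0.30 (adjusted p = 0.00011), and Penk, which encodes enkephalin, was at 35.0, 69.0, 16.9 and 20 against 82.9, 92.6, 33.8 and 77.1 (-0.92 ± 0.15, adjusted p = 3.23e-08). Drd1 was called as well (-1.41 ± 0.34, adjusted p = 0.00158), but not without male 1 (adjusted p = 0.0926) or without male 2 (adjusted p = 0.066), and DESeq2 called neither Drd1 (adjusted p = 0.151) nor Drd2 (adjusted p = 0.0723).

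Ion channels were led by a potassium channel subunit. Kcnmb2 was at 162, 186, 329 and 253 CPM in members against 76.5, 76.8, 97.3 and 79.6 (1.41 ± 0.10, adjusted p = 3.28e-39), with no overlap. The list of voltage-gated potassium channels, of which Kcnmb2 was not an entry, had 1 of 47 tested genes higher and 10 lower, with a median of -0.22. Kcnq5, a subunit of the M-current, was at 901, 668, 806 and 470 against 1319, 1294, 1823 and 994 (-0.93 ± 0.11, adjusted p = 1.43e-14). In each library members were below the comparison nuclei for it. Among 30 sodium, calcium and other cation channel genes 1 was higher and 4 were lower. The higher one, Cacna2d3, a calcium channel subunit, was at 967, 1093, 852 and 1647 against 692, 646, 767 and 444 (0.81 ± 0.11, adjusted p = 6.37e-12), was at 0.48 without female 2, and was not called by DESeq2 (adjusted p = 0.515). Cacna2d1, its relative, fell by 0.72 ± 0.11 (adjusted p = 9.89e-09).

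Because Piezo2 is a mechanically gated channel, other genes of that kind were examined in a list that also holds TRP channels. Of 23 tested, 2 were higher and none lower, with a median of 0.01. Kcnk2, which encodes the mechanically sensitive potassium channel TREK-1, was at 105, 122, 140 and 203 CPM in members against 81.9, 78.8, 97.3 and 114 (0.57 ± 0.11, adjusted p = 1.97e-05), higher in each library although the groups overlapped. Trpm3, a cation channel of the TRP family, was at 1107, 1336, 1249 and 1430 against 915, 938, 1124 and 786 (0.45 ± 0.11, adjusted p = 0.00128). Piezo1, the paralog of Piezo2, was near the detection limit, with 6 UMIs in 5 members, and the fit gave 0.29 ± 0.73 (adjusted p = 0.946). For Fign, none of 9 tested relatives among the microtubule-severing ATPases was called by edgeR, with 1 at an unadjusted p under 0.05, and 0 were called by DESeq2. Spast, which encodes spastin, was at 90.6, 96.4, 87.1 and 100 against 83.1, 86.0, 80.4 and 82.8 (0.16 ± 0.12, adjusted p = 0.677), and Katna1, a katanin subunit, gave 0.16 ± 0.23 (adjusted p = 0.889).

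Members had more Grm8 and less Glra2 and Chrm1. Grm8 was at 1339, 1257, 847 and 1397 CPM against 722, 711, 740 and 534 (0.83 ± 0.11, adjusted p = 1.82e-12), higher in each library and with no overlap. Among 24 glutamate receptor genes 3 were higher and 2 lower, and among 20 GABA and glycine receptor genes 2 were higher and 6 lower. Glra2, a glycine receptor subunit, was at 64.7, 69.0, 60.5 and 30 against 120, 123, 100 and 83.1 (-0.89 ± 0.13, adjusted p = 9.44e-10), with no overlap. None of 30 monoamine, acetylcholine, adenosine and cannabinoid receptor genes was higher and 6 were lower. Of these Chrm1, the M1 muscarinic receptor, was at 9.14, 6.09, 7.26 and 0 against 21.2, 20.1, 21.4 and 19.6 (-1.59 ± 0.30, adjusted p = 9.45e-06).

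Of 42 peptide and hormone receptor genes 3 were higher and 5 lower, with a median of -0.32, and of 16 neuropeptide genes none was higher and 3 were lower, with a median of -0.65. Over all genes tested 1.57% were higher and 2.66% lower, with a median of -0.035. Of the lower genes, 2 encode tachykinin receptors. Tacr1, the substance P receptor, was at 9.14, 16.2, 21.8 and 3.33 CPM in members against 50.9, 51.0, 38.7 and 32.0 (-1.89 ± 0.22, adjusted p = 2.3e-15). Tacr3, the neurokinin B receptor, was at 6.09, 6.09, 0 and 3.33 against 20.9, 20.5, 15.7 and 24.1 (-2.05 ± 0.33, adjusted p = 6.41e-08). Neither overlapped. Galr1, a galanin receptor, was higher, at 9.14, 20.3, 7.26 and 20 against 4.44, 4.74, 4.07 and 4.58 (1.60 ± 0.34, adjusted p = 0.000126), a call lost without male 2 (adjusted p = 0.182). Oprk1, the kappa opioid receptor, was at 47.2, 30.5, 26.6 and 33.3 against 22.3, 21.0, 22.3 and 11.1 (0.84 ± 0.19, adjusted p = 0.000501), a call lost without male 1 (adjusted p = 0.285).

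Of 31 tested steroid and nuclear receptor and enzyme genes 3 were called higher and 4 lower, and called or not 7 lay above 0 and 24 below, with a median of -0.09. Esr1 and Pgr, estrogen and progesterone receptor genes, gave -0.04 ± 0.19 and -0.07 ± 0.15 with adjusted p of 0.97 and 0.927. Cyp19a1, the aromatase gene, was at 17.5, 29.4, 2.42 and 3.33 CPM against 7.61, 7.31, 1.49 and 3.62 (1.48 ± 0.31, adjusted p = 9.43e-05). Its excess lay in the male libraries, while the members of female 1 and of female 2 held 1 UMI each in all. The call was lost without male 2 (adjusted p = 0.473) and under DESeq2 (adjusted p = 0.0778).

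Adhesion and guidance genes moved in both directions. Of 31 cadherins and protocadherins 7 were higher and 5 lower, of 71 synaptic adhesion genes 4 and 14, and of 46 guidance genes 4 and 8. Cdh12 was at 419, 495, 273 and 320 CPM against 210, 213, 203 and 181 (0.91 ± 0.10, adjusted p = 1.76e-15), and Slit2, a secreted repellent of axons, at 312, 395, 225 and 370 against 202, 202, 187 and 143 (0.81 ± 0.10, adjusted p = 2.01e-12). Sema3e and Sema3a, class 3 semaphorins, moved apart. Sema3e was at 88.3, 66.0, 82.3 and 157 against 44.6, 44.6, 60.6 and 41.2 (0.94 ± 0.12, adjusted p = 1.06e-11), while Sema3a was at 48.7, 54.8, 58.1 and 43.3 against 103, 97.1, 99.5 and 80.4 (-0.92 ± 0.13, adjusted p = 1.6e-09). Il1rapl2, a synaptic organizer, was at 484, 731, 1188 and 1027 against 458, 438, 561 and 472 (0.75 ± 0.10, adjusted p = 1.97e-10), and Cntnap5a fell by 0.69 ± 0.11 (adjusted p = 2.44e-08).

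Genes of the extracellular matrix were lower where they were called. Of 32 matrix and perineuronal net genes none was higher and 11 were lower, with a median of -0.48. Col19a1, a collagen gene, was at 20.6, 5.08, 16.9 and 10.0 CPM against 34.3, 33.1, 40.5 and 23.9 (-1.30 ± 0.22, adjusted p = 8.7e-07). Egflam had no UMI in members and 426 in other GABAergic nuclei, at least 2.09-fold lower against a floor of 3 UMIs over all members, and its call was lost with any 1 library left out (adjusted p from 0.0887 to 0.375) and without the glial-led clusters (adjusted p = 0.296). The calcium-binding and release list had 2 of 34 genes higher and 6 lower. Necab1, a calcium-binding protein gene, was at 147, 137, 126 and 80.0 against 278, 272, 268 and 258 (-1.08 ± 0.12, adjusted p = 9.6e-18), with no overlap. In Cadps2, which fell by 0.95 ± 0.11 (adjusted p = 1.03e-14), 18.4% of the members' UMIs came from 1 nucleus.

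Outside these lists, increases were in genes of varied function. Nox4, an NADPH oxidase gene, was at 26.6, 24.4, 7.26 and 36.7 CPM against 5.36, 5.62, 5.87 and 5.13 (2.12 ± 0.27, adjusted p = 1.82e-12). Rnf152, a lysosomal ubiquitin ligase gene, was at 54.1, 49.7, 50.8 and 73.3 against 19.2, 19.7, 25.1 and 19.2 (1.43 ± 0.16, adjusted p = 2.93e-15). Itga6, an integrin gene, was at 28.9, 36.5, 33.9 and 43.3 against 11.8, 10.8, 18.2 and 8.89 (1.5 ± 0.21, adjusted p = 1.66e-10). Each was higher in 4 of 4 libraries, although Nox4 in female 1 rested on 3 UMIs in 2 members. Ltbp1, which binds latent TGF-beta, was at 12.9, 21.3, 60.5 and 50.0 against 10.5, 9.58, 10.1 and 7.96 (1.53 ± 0.23, adjusted p = 1.31e-08), with most of the difference in the female libraries. The heparan sulfate genes Gpc3, a glypican, and Hs3st4, a sulfotransferase, rose by 1.04 ± 0.12 (adjusted p = 7.28e-16) and 0.93 ± 0.10 (adjusted p = 2.33e-16), and Klhl5 and Vwa5b1 by 1.08 ± 0.12 (adjusted p = 9.94e-16) and 1.46 ± 0.22 (adjusted p = 5.27e-09).

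Increases were also called for Lemd1 (1.35 ± 0.27), Frmpd1 (1.21 ± 0.21), Dnah7b (1.13 ± 0.19), Creb5 (1.11 ± 0.21), Kitl (1.09 ± 0.24) and Glis3 (1.01 ± 0.21), and Kitl lost its call against UMI-matched nuclei (0.71, adjusted p = 0.206). Some calls rested on 1 library. Sox5os4, antisense to Sox5 and not separable from it without strand, was at 7.61, 4.06, 82.3 and 6.67 CPM against 3.63, 3.27, 12.4 and 3.44, and its call was lost without female 1 (adjusted p = 0.592). Mme, the neprilysin gene, lost its call without female 2 (adjusted p = 0.232) and Adcy7, an adenylyl cyclase gene, without male 2 (adjusted p = 0.176). Among the decreases, Chst9, a sulfotransferase gene, was at 18.3, 13.2, 2.42 and 0 against 45.6, 47.9, 48.1 and 25.2 (-1.86 ± 0.22, adjusted p = 7.84e-15, and -2.47 without male 1). Sfta3-ps was at 8.37, 1.01, 14.5 and 3.33 against 24.9, 23.1, 33.0 and 34.7 (-2.07 ± 0.29, adjusted p = 1.15e-10). Col6a1, Actn2, Arhgap10, Myo5b and Tmod1 fell by 1.67, 1.62, 1.53, 1.47 and 1.36, each lower in 4 of 4 libraries.

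**Figure D3:**
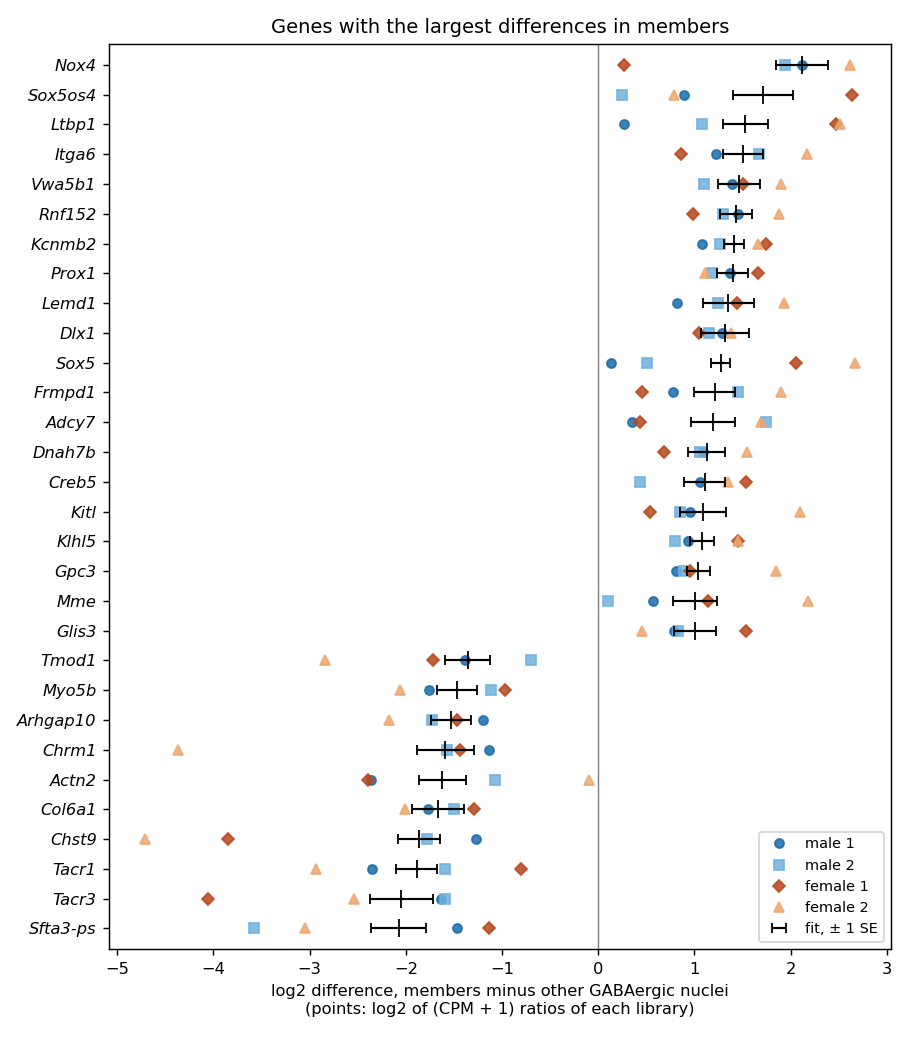
Log2 difference between members and other GABAergic nuclei for the genes with the largest differences, with the edgeR estimate and its standard error in black and 1 point per library for the log2 ratio of CPM + 1. Nox4 has the largest increase (2.12) and lies above 0 in each library, although in female 1 on 3 UMIs in members. Sfta3-ps has the largest decrease (-2.07). Both rank among genes with a mean CPM of at least 20.

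The differences were measured again against nearer nuclei, with comparisons chosen after the data were seen. Against other nuclei of the same clusters matched on UMIs, 71 genes were higher and 98 lower of 9439 tested. Kcnmb2 rose there by 0.84, Prox1 by 0.78 (adjusted p = 0.0269) and Isl1 by 1.18, while Bcl11b fell by 0.74. Of 109 named genes called in the wider comparison, 42 were called there. Penk (adjusted p = 0.132), Drd1 (adjusted p = 0.352), Drd2 (adjusted p = 0.465), Oprk1 (adjusted p = 0.258), Creb5 (adjusted p = 0.669), Frmpd1 (adjusted p = 0.284) and Lemd1 (adjusted p = 0.179) were among those that were not. Sst, not called in the wider comparison, was called here (1.15, adjusted p = 0.0302). Against nuclei that met the Fign condition and held no Piezo2 UMI, 108 genes were higher and 155 lower of 11745 tested. Kcnmb2 (1.44), Sox5 (1.59), Cdh12 (1.21) and Sema3e (1.30) were called here too, whereas Isl1 (0.56, adjusted p = 0.0576) and Chst9 (-0.07, adjusted p = 0.984) were not.

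Members differed from the Tshz1 and Moxd1 GABAergic populations, which the rule set apart by its limits. Against 1037 Tshz1 nuclei, 305 of 9690 genes were higher, or 3.15%, and 528 were lower, or 5.45%. Isl1 was at 43.7, 53.9, 31.2 and 46.4 CPM in members against 12.3, 9.39, 1.76 and 13.3 (2.19 ± 0.22, adjusted p = 4.72e-08), and Rnf152 at 53.5, 49.8, 54.5 and 78.6 against 10.6, 10.4, 11.5 and 15.8 (2.29 ± 0.19, adjusted p = 7.7e-10). Chst9 was at 18.1, 13.2, 2.60 and 0 against 220, 248, 268 and 209 (-4.23 ± 0.21, adjusted p = 3.99e-14, and -4.88 without male 1). No values overlapped for these 3 genes. Ltbp1, Vwa5b1 and Adcy7 were also higher, by 2.08, 2.08 and 1.84, and Ankrd33b, Cacng5, Hmcn1 and Rai14 fell by 2.78, 2.49, 2.37 and 2.25, Ankrd33b by 3.71 without female 1. The calls numbered 514 without male 1 and 479 without male 2. Against 505 Moxd1 nuclei, 245 of 7897 genes were higher, or 3.1%, and 283 were lower, or 3.58%. Sema3e was at 89.6, 67.5, 90.9 and 174 against 23.7, 20.5, 19.9 and 30.6 (1.93 ± 0.16, adjusted p = 4.63e-07). Col19a1 was at 20.9, 5.19, 18.7 and 11.1 against 296, 296, 833 and 564 (-4.77 ± 0.23, adjusted p = 3.44e-10), and Egfr, the epidermal growth factor receptor gene, at 19.3, 4.15, 21.4 and 7.42 against 146, 150, 323 and 381 (-3.84 ± 0.24). In each library members were far below the Moxd1 nuclei for both, and without male 1 the differences were -5.62 and -4.71. Isl1 (2.21, and 3.24 without male 1), Qrfpr (1.91), Hs3st4 (1.84) and Gulp1 (1.67) were also higher, and Sfta3-ps fell by 4.12. Gna14 and Crhr2, a corticotropin-releasing hormone receptor gene, were called lower with 4 and 6 UMIs in all members. The calls numbered 345 without male 1 and 258 without male 2.

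Glial transcripts were present in members and moved with the result. Of 10 oligodendrocyte genes tested 7 were higher and none lower, among them Mog (0.75 ± 0.16, adjusted p = 0.000108) and Mbp (0.58 ± 0.10, adjusted p = 3.07e-06). The summed level of the list was 650, 572, 1620 and 709 CPM in members against 419, 441, 774 and 633 in other GABAergic nuclei, and none of its genes was at 0. The astrocyte list summed to 373, 303, 808 and 301 against 318, 324, 496 and 568, with none of 8 tested genes called by edgeR or DESeq2 or at an unadjusted p under 0.05, and the microglial and vascular list to 67.4, 78.0, 213 and 89.6 against 62.0, 54.4, 136 and 94.2, with C1qa, Flt1, Cldn5 and Rgs5 at 0 in male 1. The clusters left out next had at least 2 genes of the oligodendrocyte, astrocyte or microglial and vascular lists among their 20 leading genes. Clusters led by Pdgfra, a gene of oligodendrocyte precursors, in male 1, male 2 and female 2 (144, 82 and 55 nuclei) and by Inpp5d in female 2 (73 nuclei) did not meet this, held no member and stayed among the comparison nuclei. Without the glial-led clusters the oligodendrocyte sums were 200, 76.5, 267 and 240 against 166, 143, 268 and 349. Mbp then turned to -0.39, St18, a factor also found in oligodendrocytes, to -0.27 from 0.74, and 214 genes were higher and 435 lower. Prox1, Kcnmb2, Sox5 and Bcl11b kept their calls, and Glis3 and Onecut2 did not. By Scrublet, a doublet score, 35 of the 205 members fell in the highest expected share of their library. Below that share were 58 of 74, 55 of 63, 33 of 41 and 24 of 27 members. Of other GABAergic nuclei, 4445 of 4901, 4306 of 4748, 3044 of 3540 and 2824 of 3221 were below it. That was a larger part than of members in male 1, male 2 and female 1, and a slightly smaller part in female 2.

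Members made up 1.49%, 1.31%, 1.14% and 0.831% of GABAergic nuclei, with exact Clopper-Pearson 95% intervals of 1.17 to 1.86, 1.01 to 1.67, 0.823 to 1.55 and 0.549 to 1.21 that cover counting error only. The males averaged 1.40% and the females 0.988%, a difference of 0.41 points. An exact two-sided permutation test gave p = 0.33, the smallest value that 2 libraries against 2 allow. The intervals of all 4 libraries overlapped. The rule counts raw UMIs and the male libraries were deeper. With each nucleus thinned to 4000 UMIs the shares were 0.663%, 0.641%, 0.816% and 0.548%, and the difference turned to -0.03 points (exact permutation p = 1).

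**Figure D4:**
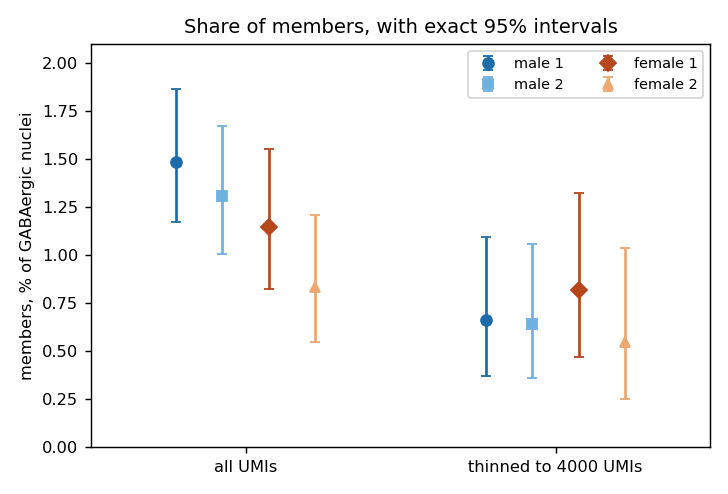
Share of members among GABAergic nuclei in each library, in percent, from all UMIs and after thinning each nucleus to 4000 UMIs, with exact 95% intervals. From all UMIs the shares run from 0.831 to 1.49 with males above females, and after thinning they run from 0.548 to 0.816 with no such order.

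Within members, 11 of 8109 genes differed between male and female libraries, or 0.136%, with 4 higher in males and 7 lower (edgeR, 2 libraries against 2). Xist, the RNA of the inactive X chromosome, was at 0 and 0 CPM in males and at 1682 and 1211 in females, at least 1120-fold higher. The Y-linked Uty, Eif2s3y and Kdm5d had no UMI in female members and were at least 34.1-fold, 30.1-fold and 15.2-fold higher in males. In each library these genes matched the labelled sex. Among the autosomal calls, Apoe and Ptgds, abundant in glia, were lower in males: Apoe at 45 and 49.1 against 188 and 158 (-1.89 ± 0.23, adjusted p = 0.038) and Ptgds at 40.4 and 57.4 against 183 and 231 (-2.08 ± 0.26, adjusted p = 0.038). The mitochondrial mt-Nd1 was at 31.8 and 28.2 against 143 and 264. For Apoe, Ptgds and mt-Nd1 the log2 sex difference in members differed from that in other GABAergic nuclei by -0.22, -0.03 and -0.48. None of these was called (edgeR adjusted p = 0.9715, 0.9993 and 0.8477), so the differences are not shown to be particular to members. Neither Apoe nor Ptgds was called without the glial-led clusters, where 4 genes were called (Xist, Uty, Eif2s3y and Sox5). Sox5 fell by 1.49 (adjusted p = 0.0389), a call lost without male 1 (adjusted p = 0.11) and without high Scrublet scores (adjusted p = 0.0505). Cyp19a1 was at 17.9 and 30.3 against 2.69 and 3.67 and was not called (2.85 ± 0.78, adjusted p = 0.238). Its female values rest on 1 UMI in 1 member of each library. Leaving out male 1, male 2, female 1 or female 2 gave 67, 75, 355 or 1218 calls, but each such fit has 1 library in one sex, which is assumed to vary like the other sex, so these counts and the loss for Sox5 say little about stability.

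The sex difference of members was then set against that of other GABAergic nuclei of the same libraries, through the interaction of population and sex. It was called for 23 of 15687 genes, or 0.147%, with 6 higher and 17 lower. Sox5 had the smallest p: members were at 172 and 217 CPM in males and at 518 and 490 in females, while other GABAergic nuclei were at 157 and 152 and at 124 and 76.1 (-2.03 ± 0.19, adjusted p = 2.14e-23). Myo16, an unconventional myosin gene, was at 180 and 194 in male members and at 298 and 417 in female ones, against 159, 153, 159 and 135 in the other nuclei (-1.0 ± 0.19, adjusted p = 0.0016). Arhgap24, a GTPase-activating protein gene, was at 99.7 and 140 in male members and at 194 and 197 in female ones, against 96.3, 92.4, 94.3 and 73.8 (-0.88 ± 0.20, adjusted p = 0.017). For these 3 genes each female library was above each male library in members. Only Sox5 was called by DESeq2, against UMI-matched nuclei or without male 1, and leaving out male 2, female 1 or female 2 gave 5, 138 or 99 calls, again with 1 library in one sex. Sex goes together with depth and software in these libraries, and the cluster that held most Sox5-rich members was found in 3 of the 4 libraries, so the part of each was not tested.

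**Figure D5:**
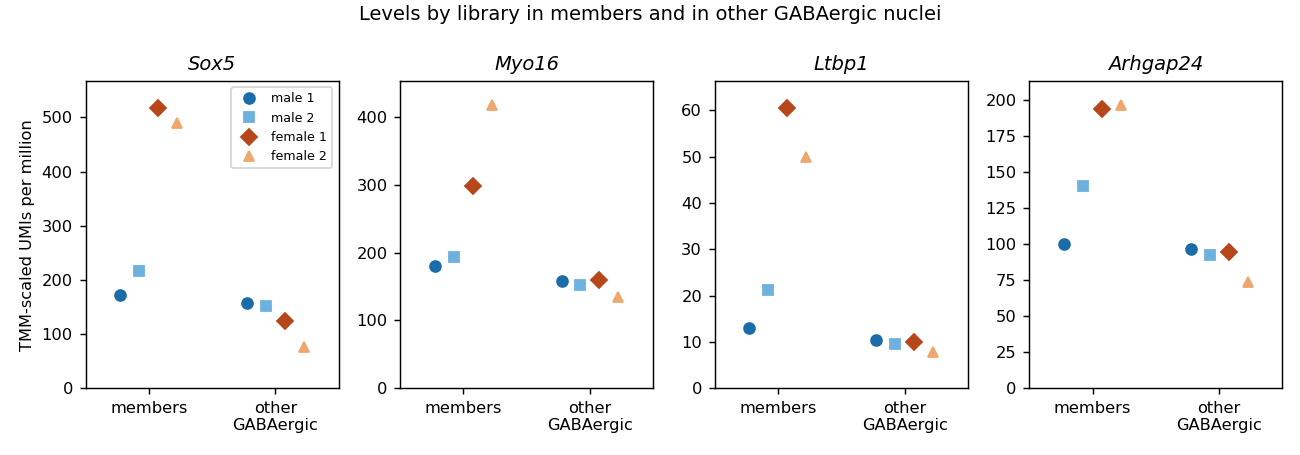
Levels in TMM-scaled CPM in members and in other GABAergic nuclei, with 1 point per library. For Sox5 the members of both female libraries (518 and 490) lie above those of the males (172 and 217), while the other GABAergic nuclei range from 76.1 to 157.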

How the data were processed

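Per the labels, nuclei from 4 libraries were profiled by 10x 3' chemistry. The authors deposited UMI counts per gene and barcode, unnormalized. The submitters' processing notes name Cell Ranger 6.0.1, Seurat 5 and mm10, and the file headers name Cell Ranger 9.0.1, 7.0.0 and 7.2.0. Barcodes were filtered and members chosen as stated above, and the members and gene lists were chosen with earlier results of these data known. Counts were summed per library and population and tested with edgeR 4.0.16 (R 4.3.3; TMM, filterByExpr, glmQLFTest), with DESeq2 1.42.0 as an alternative, at an adjusted p of 0.05. Clusters came from leidenalg 0.10.2 on 2000 variable genes and 30 components, computed with scikit-learn 1.9.0. Scrublet, run in scanpy 1.11.5, marked 0.8% per 1000 barcodes as likely doublets, and they were kept. The procedure was tested on simulated data. Named were the 20 largest increases and 10 largest decreases with mean CPM of at least 20, called and alike in 4 of 4 libraries, up to 4 called genes per list with others singled out for their known role, 5 each way against Tshz1 and Moxd1 nuclei, up to 10 sex genes, and not every such gene is printed. Sox5os4 and Sox5, and other overlapping genes, were counted by the authors in ways not given in the sources used here. Alternatives were scaling, filtering, UMI matching, a stricter rule, doublets, glial-led clusters and leaving out each library.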

Additional observations from a re-analysis of the deposited data

Results flagged for a closer look

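In 5 of the named genes the male against female difference in members differed from that in other GABAergic nuclei, by edgeR's test of the interaction over 15687 genes. The interaction, on the log2 scale, was -2.03 ± 0.19 for Sox5 (adjusted p = 2.14e-23), -1.0 ± 0.19 for Myo16 (adjusted p = 0.0016), -1.89 ± 0.42 for Ltbp1 (adjusted p = 0.00921), -0.88 ± 0.20 for Arhgap24 (adjusted p = 0.017) and -0.91 ± 0.22 for Dach1 (adjusted p = 0.0307). Ltbp1 was at 12.9 and 21.3 TMM-scaled CPM in male members and at 60.5 and 50.0 in female members, Arhgap24 at 99.7 and 140 and at 194 and 197, and Dach1 at 85.3 and 112 and at 148 and 160. Only Sox5 was called under DESeq2, with UMI-matched comparison nuclei and without male 1.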

How the results depend on the processing

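The number of genes higher in members (247) was 136 under DESeq2, 154 with UMI-matched comparison nuclei, 163 under a stricter rule of 5 Fign and 3 Piezo2 UMIs, 71 against nuclei of the same cluster and 108 against Fign nuclei with no Piezo2, and the number lower (418) was 164, 200, 278, 98 and 155. With 1 library left out they ran from 146 to 226 and from 246 to 407. Without a library block, which is no replicate block either, both were 0, with 1029 genes at an unadjusted p under 0.05 by edgeR. The Tshz1 comparison gave 423 genes under DESeq2 and 479 to 901 with 1 library left out, and the Moxd1 comparison 319 and 258 to 649. The sex comparison (11) gave 41 under DESeq2, 437 without the low-count filter, 4 without high Scrublet scores, 4 without glial-led clusters and 67 to 1218 with 1 library left out. With a replicate block it gave 18, and replicate numbers did not pair the libraries (correlation 0.0504 over 8119 genes). The interaction (23) gave 1 under DESeq2, 1 with UMI-matched nuclei and 1 to 138 with 1 library left out. Leaving out a library leaves 1 in one sex, assumed to vary like the others. The share difference was -0.0294 points at 4000 UMIs and -0.0353 at 2000, and the neighbour share was 5.0% after thinning. Without glial-led clusters Cdh19 (-0.10), Mag (-0.11), Mbp (-0.39) and St18 (-0.27) turned, as did Tcf7l2 (-0.17) against nuclei of the same cluster and Mobp (-0.01) against Fign nuclei with no Piezo2. The causes were not tested beyond the smaller numbers of nuclei or genes these settings keep. Depth limits genes with few UMIs in members, such as Piezo1.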
